A study of Mus musculus with 48 samples.

Results

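The 10 core genes of the circadian clock were followed through the thoracic aorta of male and female mice: Arntl, Npas2, Clock, Per1, Per2, Per3, Cry1, Nr1d1, Nr1d2 and Dbp. They were chosen by name, and all 10 of them were listed among the 18782 genes of the deposited table. The RNA came from 48 wild-type C57BL/6J mice, with 1 library per mouse, from the thoracic aorta (the lesioned segments where there was a lesion). Control mice drank normal water (10 males, MaCon, and 10 females, FeCon). The others drank water with 0.4% β-aminopropionitrile (BAPN), which blocks the cross-linking of collagen and elastin, for 28 days from 3 weeks of age, and were grouped by whether they had developed an aortic dissection or aneurysm (7 MaAAD and 9 FeAAD) or had no aortic lesion that could be seen under the microscope (4 MaNonAD and 8 FeNonAD). The study asked how the aortas of the sexes differ with and without such lesions. BAPN was given to growing mice, only mice that survived to the end were sampled, and whole segments of the wall were taken, with all their cell types. Mice were kept under a 12-h light/dark cycle. The study's methods place the faecal sampling of all mice within the same morning, in random order over cages and sexes and just before they were killed; the hour at which each single aorta was taken, and the cage of each mouse, are not given in the sources used here. A shift of the clock and a change in the level of a clock gene therefore cannot be told apart in these samples, and neither can group and hour of collection.

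The clock is a feedback loop that runs in nearly every cell, smooth muscle of the vessel wall included. ARNTL (also called BMAL1) pairs with CLOCK or with its close relative NPAS2, and the pair switches on genes that carry a short sequence called the E-box, among them the Per and Cry genes, Nr1d1, Nr1d2 and Dbp. PER and CRY proteins then block the pair. The receptors NR1D1 and NR1D2 (REV-ERBα and REV-ERBβ) repress Arntl and Npas2 through ROR elements, and DBP, with its relatives TEF and HLF, activates genes that carry a D-box, where NFIL3 represses. In a tissue collected over the day, Arntl and Npas2 are therefore known to be high when Dbp is low.

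The promoter windows of the members were read from RefSeq (GRCm38.p6, 250 bases before to 50 bases after the start), because these motifs define the arms of the loop. Of the 10 members, 9 had an entry, with 13 windows among them. The letters searched, on both strands, were CACGTG for the E-box, TTATGTAA or TTACGTAA for the D-box, and AGGTCA or GGGTCA directly preceded by AANT for the ROR element. Of all 32851 windows, 7.15% held that E-box, 1.06% such a D-box and 0.435% such a ROR element. Windows of 4 members held one of them, which are printed here with the motif in capitals.
Per1, chr11:69098733-69098838, plus strand, E-box 166 bases before the start: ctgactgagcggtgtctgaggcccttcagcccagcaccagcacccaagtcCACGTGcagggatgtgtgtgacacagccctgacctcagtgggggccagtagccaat
Cry1, chr10:85185059-85185164, minus strand, E-box 60 bases before the start: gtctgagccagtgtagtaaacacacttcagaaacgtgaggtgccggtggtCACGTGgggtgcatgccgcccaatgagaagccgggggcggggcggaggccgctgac
Per3, chr4:151044766-151044915, minus strand, D-boxes 205 and 158 bases before the start: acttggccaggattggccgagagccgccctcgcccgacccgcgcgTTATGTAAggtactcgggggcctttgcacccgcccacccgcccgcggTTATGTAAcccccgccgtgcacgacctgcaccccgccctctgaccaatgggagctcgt
Arntl, chr7:113207528-113207557, plus strand, ROR element 27 bases after the start: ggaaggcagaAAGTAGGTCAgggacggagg
None of the 3 motifs, as spelled here, was found in the windows of Npas2, Clock, Nr1d1, Nr1d2 or Dbp, which says only that these letters are not in those 300 bases.

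Library totals ranged from 13548003 to 17281262 counts, and the lowest count of any member in any library was 19 (Arntl in FeNonAD1), so counting error was small beside the differences described here. No member had a value that was not whole, that is, none of their reads had been shared out between genes. Levels are given as CPM (counts scaled to library size) with TMM factors, and differences as log2 fold changes with their standard errors. The smooth muscle genes that define the tissue were abundant in every library: Acta2 was between 6432 and 35597 CPM. Some libraries stood apart. MaCon5 differed from the other 9 MaCon libraries in most members, FeCon7 and FeCon9 had the highest Per1 of the series, and FeAAD5 and MaAAD7 had the highest summed neutrophil markers (878 and 235 CPM, against group medians of 10.9 and 21.3).

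**Figure D1:**
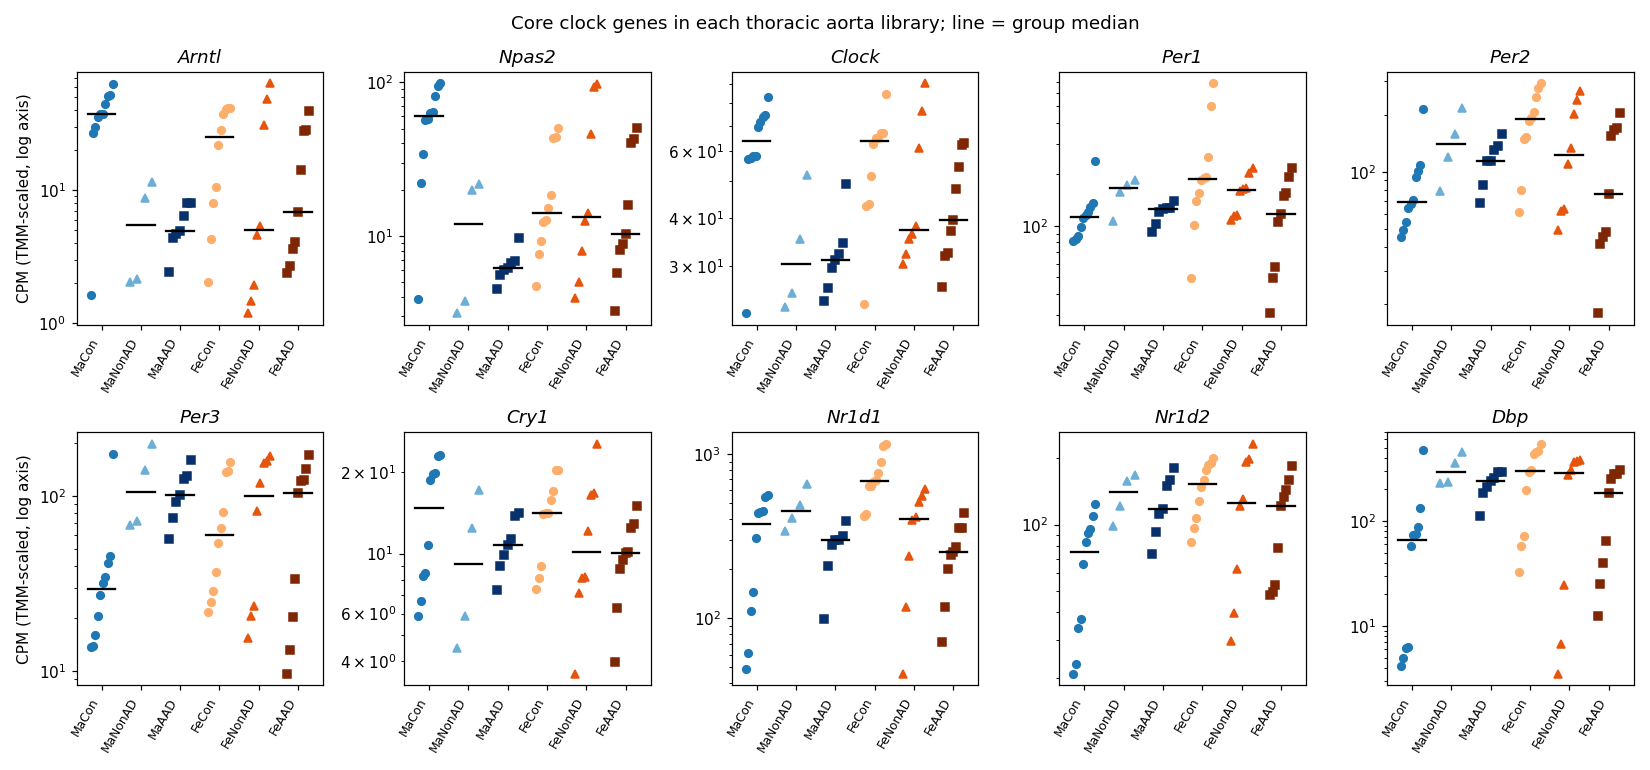
CPM (log axis) of each core clock gene in the 48 libraries by group, 1 point per library, with the points of a group spread sideways in order of value and a line at the group median. Values of Dbp in MaCon run from 4.21 to 472 CPM, while in MaAAD they stay between 112 and 294 CPM.

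Arntl, whose product is part of the activating pair of the loop, was high in most control aortas and low in the aortas of male BAPN mice. In MaCon it ranged from 1.62 to 63.1 CPM with a median of 37.7. Its values in the 4 MaNonAD libraries were 2.04, 2.16, 8.74 and 11.4 CPM, and in MaAAD it ranged from 2.40 to 8.04 CPM with a median of 4.95. Of the MaCon libraries only MaCon5 lay below the highest MaAAD value, and it lay under the whole MaAAD range; the next lowest, MaCon9, was at 27.2 CPM. In females the level ranged from 2.03 to 41.9 CPM in FeCon (median 25.1), from 1.18 to 63.8 CPM in FeNonAD (median 4.97) and from 2.35 to 39.6 CPM in FeAAD (median 6.90). Each female group therefore held libraries near both ends of the range seen in the whole series. In whole tissue, fewer cells of a type and less RNA per cell cannot be told apart.

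Npas2, which can take the place of CLOCK, followed the same order at both ends. It ranged from 3.87 to 98.4 CPM in MaCon (median 60.2), was 3.12, 3.77, 20.0 and 21.8 CPM in MaNonAD, and ranged from 4.52 to 9.68 CPM in MaAAD (median 6.17). In females it ranged from 4.69 to 50.5 CPM in FeCon (median 14.0), from 3.90 to 97.3 CPM in FeNonAD (median 13.3) and from 3.24 to 50.3 CPM in FeAAD (median 10.2). Clock itself varied far less. Its medians were 63.9 CPM in MaCon and 63.7 in FeCon, 30.3 in MaNonAD and 37.2 in FeNonAD, and 31.0 in MaAAD and 39.5 in FeAAD, and over all libraries it stayed between 22.5 CPM (MaCon5) and 90.3 CPM (FeNonAD5).

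Dbp, the output gene of the loop, ran the other way between the male control and BAPN groups, and over the widest range. Among the female groups the medians of both Arntl and Dbp were highest in FeCon. It lay between 4.21 and 472 CPM in MaCon (median 66.0), and was 231, 233, 354 and 456 CPM in MaNonAD. In MaAAD it lay between 112 and 294 CPM (median 241). In females it ranged from 33.0 to 545 CPM in FeCon (median 299), from 3.53 to 381 CPM in FeNonAD (median 289) and from 12.3 to 306 CPM in FeAAD (median 183). Its lowest value in FeNonAD was thus 108-fold under its highest in the same group, and in MaCon the ratio was 112-fold.

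Among the Per genes, whose products repress the activating pair, Per3 was closest to Dbp between the libraries of a group. The correlation with Dbp of deviations from group means was 0.88 for Per3, 0.71 for Per2 and 0.29 for Per1. By group median, Per1 and Per2 had the same order of the 6 groups as Dbp, and Per3 had another. Per3 ranged from 13.8 to 173 CPM in MaCon (median 29.6), was 68.4, 72.0, 140 and 200 CPM in MaNonAD, and ranged from 56.7 to 161 CPM in MaAAD (median 101). In females its medians were 59.9 CPM in FeCon, 101 in FeNonAD and 105 in FeAAD, and FeAAD held its lowest value of the series, 9.67 CPM in FeAAD9. Per2 medians were 69.3 CPM in MaCon and 189 in FeCon, 140 in MaNonAD and 122 in FeNonAD, and 114 in MaAAD and 76.3 in FeAAD. Per1 medians were closer together, between 113 CPM in MaCon and 188 CPM in FeCon, but FeCon spread from 49.4 to 683 CPM and FeAAD from 30.7 to 219 CPM. The high end of Per1 in FeCon was made up of FeCon7 at 501 CPM and FeCon9 at 683 CPM, since the next highest FeCon library was at 253 CPM.

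Cry1, the partner of the PER proteins, was the member whose groups differed least: its medians lay between 9.18 CPM in MaNonAD and 14.8 CPM in MaCon. Nr1d1, a repressor of Arntl, was highest in FeCon, where it ranged from 419 to 1158 CPM (median 683). Its ranges were 49.0 to 563 CPM in MaCon (median 373), 338 to 654 CPM in MaNonAD (median 449) and 98.8 to 392 CPM in MaAAD (median 299). In FeNonAD it ranged from 45.9 to 615 CPM (median 403) and in FeAAD from 71.9 to 434 CPM (median 254). Nr1d2, its paralog, had medians of 74.8 CPM in MaCon and 153 in FeCon, 140 in MaNonAD and 126 in FeNonAD, and 117 in MaAAD and 121 in FeAAD.

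When the 6 groups were ordered by median, MaCon was the highest for Arntl, Npas2, Clock and Cry1 and the lowest for Per1, Per2, Per3, Nr1d2 and Dbp. FeCon was the highest for Per1, Per2, Nr1d1, Nr1d2 and Dbp. For each of the 10 members the ranges of all 5 neighbouring groups in its order overlapped. In the 9 planned comparisons between groups, no member had groups that did not overlap; over all 14431 genes tested, the share without overlap was 8.91% for MaAAD and MaCon, 4.89% for FeAAD and FeCon, 4.04% for MaAAD and MaNonAD, 1.26% for MaNonAD and MaCon, 0.762% for MaNonAD and FeNonAD, 0.741% for FeNonAD and FeCon, 0.229% for FeAAD and FeNonAD, 0.152% for MaCon and FeCon and 0.0624% for MaAAD and FeAAD. Of all 15 pairs of groups, the only ranges of a member that stayed apart were those of Nr1d1 in MaAAD and FeCon.

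**Figure D2:**
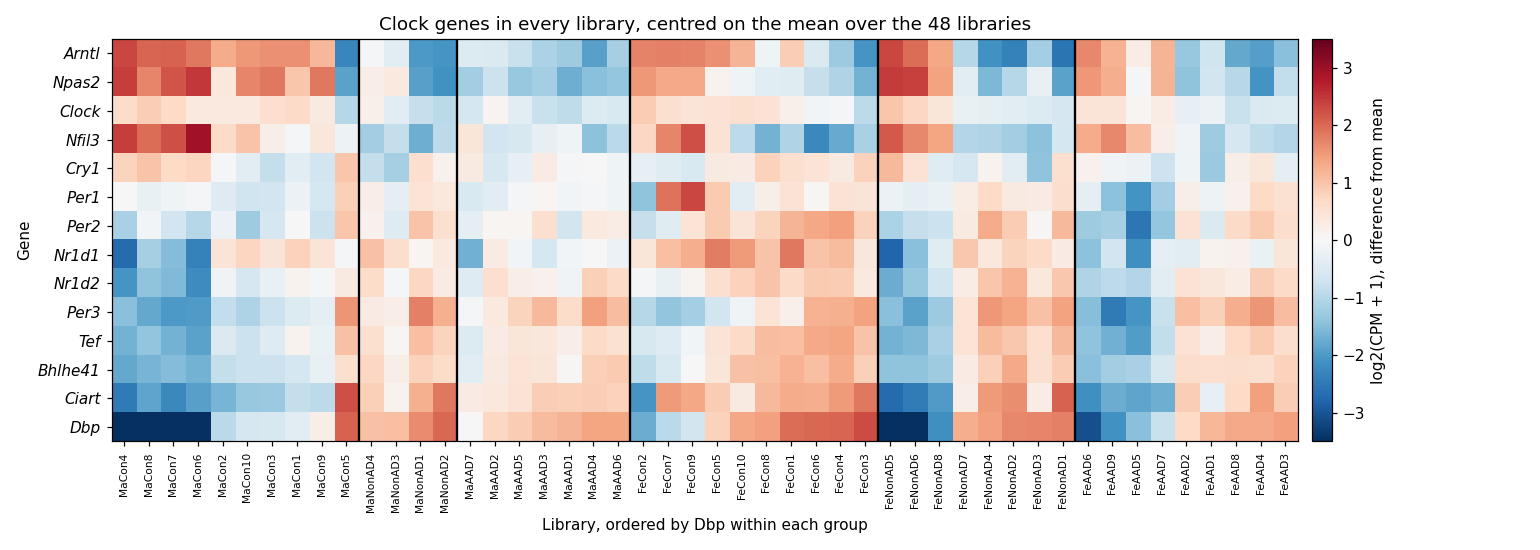
Each core clock gene and 4 genes of the same loop (Nfil3, Tef, Bhlhe41 and Ciart) in every library, as log2(CPM + 1) minus the gene's mean over the 48 libraries, with colours limited to 3.5 in either direction and libraries ordered by Dbp within each group. Within each group, the libraries at the left, lowest in Dbp, include those highest in Arntl and Npas2 and lowest in Per3, over a narrower range in MaAAD than in MaCon.

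Within 4 of the groups, the libraries low in Dbp were also high in Arntl and low in Per3. In MaCon, 4 libraries (MaCon4, MaCon6, MaCon7 and MaCon8) had Dbp at or under 6.31 CPM while the next was at 57.9 CPM. In FeNonAD, 3 libraries (FeNonAD5, FeNonAD6 and FeNonAD8) were at or under 24.8 CPM and the other 5 at 272 CPM or more. In FeAAD, FeAAD5, FeAAD6, FeAAD7 and FeAAD9 were at or under 64.5 CPM and the other 5 at 183 CPM or more, and in FeCon the libraries FeCon2, FeCon7 and FeCon9 were at or under 72.1 CPM and the other 7 at 198 CPM or more. These low-Dbp libraries were the highest of their group in Arntl, 4 of 4 in MaCon, 3 of 3 in FeNonAD, 4 of 4 in FeAAD and 3 of 3 in FeCon, and likewise the lowest in Per3. Libraries low in Dbp and high in Arntl were thus found among MaCon, FeCon, FeNonAD and FeAAD. Dbp had no such gap in MaNonAD and MaAAD. The libraries below its widest gap there were also the highest of their group in Arntl (2 of 2 and 3 of 3). In Per3, 2 of 2 and 2 of 3 of them were among the lowest.

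MaCon5 was the mirror image of the other MaCon libraries. It had the group's highest Dbp (472 CPM, next 133), Per3 (173 CPM, next 45.7), Per2 (213 CPM, next 109) and Per1 (239 CPM, next 137), and its lowest Arntl (1.62 CPM), Npas2 (3.87 CPM) and Clock (22.5 CPM, next 57.2). Its values of these genes lay beside those of FeCon3, with Dbp at 545 CPM and Arntl at 2.03 CPM, and of FeNonAD1, with Dbp at 381 CPM and Arntl at 1.18 CPM.

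In MaAAD no member had a gap over 1 on the log2 scale between neighbouring libraries with at least 2 libraries on each side, while 5 of 10 members had one in FeNonAD, 4 in FeAAD, 3 in FeCon, 2 in MaCon and 2 in MaNonAD. All 7 MaAAD libraries lay on the side of low Arntl (at most 8.04 CPM), low Npas2 (at most 9.68 CPM) and high Dbp (at least 112 CPM). In the 4 MaNonAD libraries Dbp was likewise at least 231 CPM and Arntl at most 11.4 CPM.

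**Figure D3:**
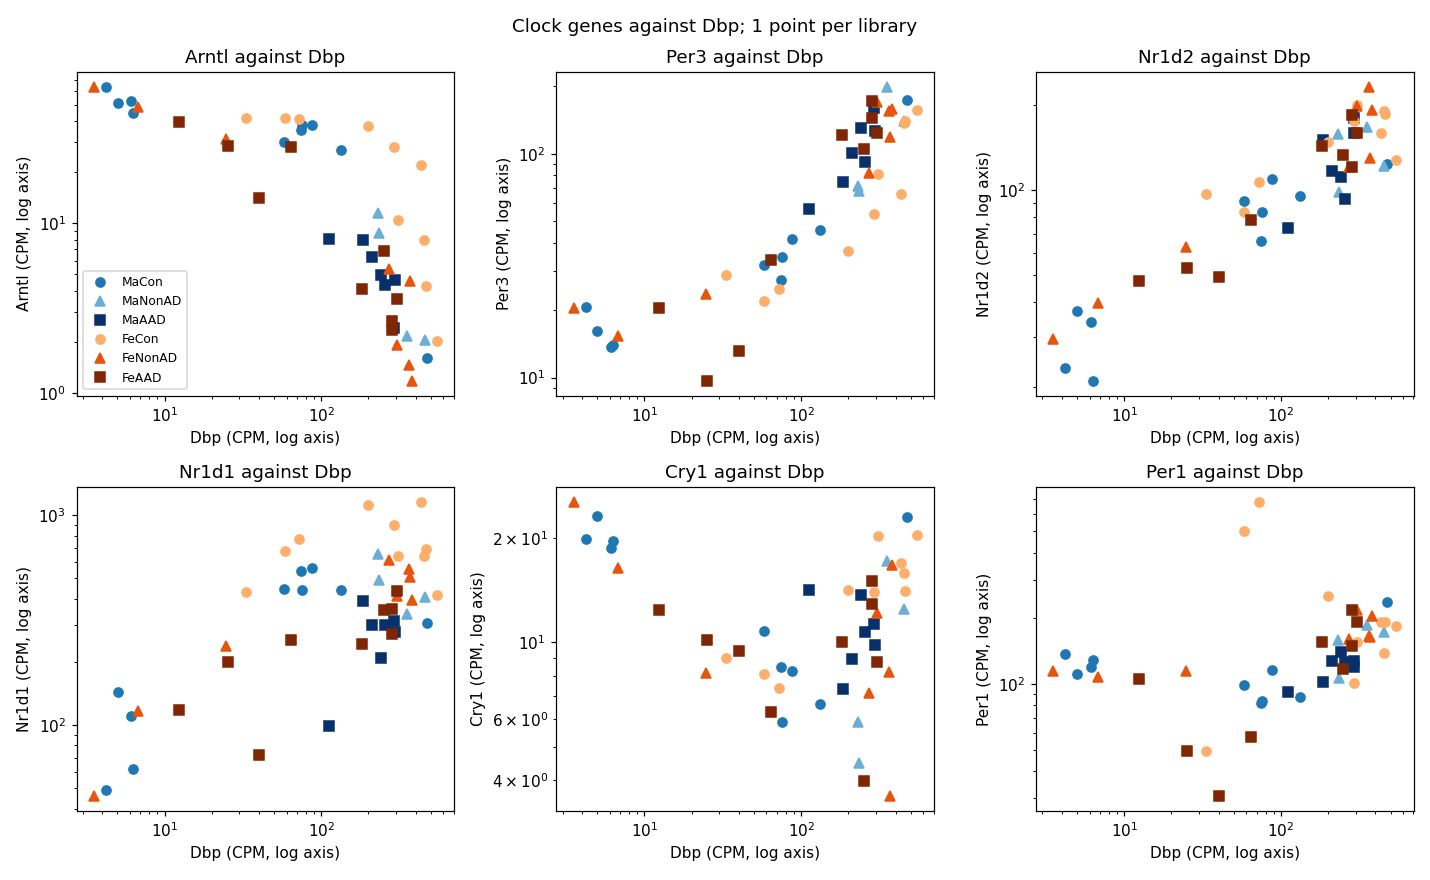
CPM of Arntl, Per3, Nr1d2, Nr1d1, Cry1 and Per1 (vertical, log axis) against CPM of Dbp (horizontal, log axis), 1 point per library, coloured by group. Arntl lies at 63.8 CPM at the lowest Dbp of the series and at 2.03 CPM at the highest, whereas Cry1 shows no such slope and FeCon7 and FeCon9 stand alone in Per1.

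Not every member ran along the line from Arntl to Dbp. In MaCon and FeNonAD, Cry1 could be high at both ends: it was 25.5 CPM in FeNonAD5, which had the lowest Dbp of the series, and 23.0 CPM in MaCon5, but 5.88 CPM in MaCon3, with Dbp at 75.7 CPM. In FeCon the 3 libraries with low Dbp were instead among the lowest in Cry1 (7.40 to 9.01 CPM). Nr1d1 was highest between the ends in MaCon and FeCon. In MaCon it was 49.0 CPM in MaCon4 (Dbp 4.21 CPM), 563 CPM in MaCon1 (Dbp 87.2 CPM) and 306 CPM in MaCon5 (Dbp 472 CPM), and in FeCon it was 1158 CPM in FeCon1 and 419 CPM in FeCon3, the library with the highest Dbp. Over the deviations of the 48 libraries from their group means, the first component held 64.8% of the variance of the 10 members and set Arntl, Npas2 and Clock against Dbp, Per3, Nr1d2 and Per2. The second held 17.8%, with its largest weights on Cry1 and, with the opposite sign, on Nr1d1. A share of this kind describes these libraries, which share their normalization, and carries no test.

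Per1 left the line in FeCon7 and FeCon9. Both had low Dbp (58.3 and 72.1 CPM) and high Arntl (41.9 and 41.2 CPM), as FeCon2 did (33.0 and 41.4 CPM), but Per1 was 501 and 683 CPM in them and 49.4 CPM in FeCon2. Ciart, a repressor of the activating pair that is high with Dbp elsewhere, was 28.4 and 25.9 CPM in FeCon7 and FeCon9 and 1.51 CPM in FeCon2. Per1 is known as a direct target of the glucocorticoid receptor as well as of the clock, and Fkbp5, another such target, was 459 CPM in FeCon7 and 551 CPM in FeCon9, against 71.0 CPM in FeCon2. FeCon7 also had the highest sum over the 10 glucocorticoid-responsive genes listed for this report, 5320 CPM against a FeCon median of 1539 CPM. Fkbp5 was also high in FeCon5 (449 CPM), whose Per1 was 253 CPM. The part of glucocorticoids in the Per1 level was not tested.

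**Figure D4:**
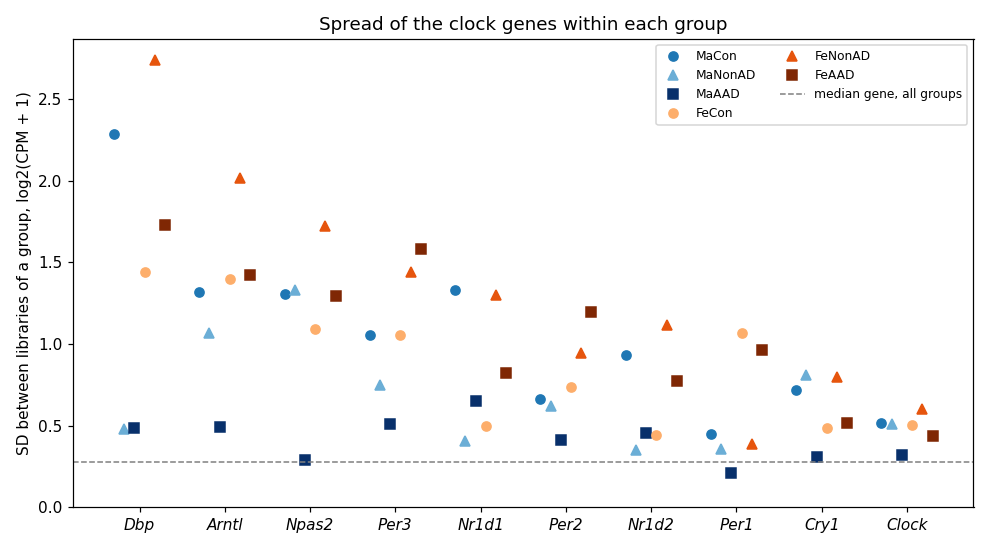
Standard deviation of log2(CPM + 1) between the libraries of each group for the 10 clock genes, ordered by the standard deviation pooled within groups, with a dashed line at the median over all 14431 genes tested (0.276). Dbp reaches 2.74 in FeNonAD and 2.29 in MaCon and lies at 0.486 in MaAAD.

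The members were among the most variable genes of the aorta within groups. The standard deviation of log2(CPM + 1), pooled within groups, was 1.85 for Dbp, which ranked 1 among 14431 genes, where the median gene had 0.276. Arntl followed at 1.40 (rank 13), Npas2 at 1.25 (rank 25), Per3 at 1.17 (rank 35) and Nr1d1 at 0.958 (rank 102). Per2 (0.827, rank 209), Nr1d2 (0.767, rank 307), Per1 (0.711, rank 409), Cry1 (0.615, rank 740) and Clock (0.492, rank 1607) were lower but all above the median gene. The groups differed in this: the standard deviation of Dbp was 2.74 in FeNonAD, 2.29 in MaCon, 1.73 in FeAAD, 1.44 in FeCon, 0.486 in MaAAD and 0.480 in MaNonAD, and that of Npas2 was 0.291 in MaAAD against 1.09 to 1.72 in the others. Per1 ranked 9821 among all genes in MaAAD. The median gene had 0.270 in MaAAD and 0.239 in MaCon; the difference in spread between groups was not tested. Differences between groups took up between 10.5% (Cry1) and 33.9% (Nr1d1) of a member's variance.

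**Figure D5:**
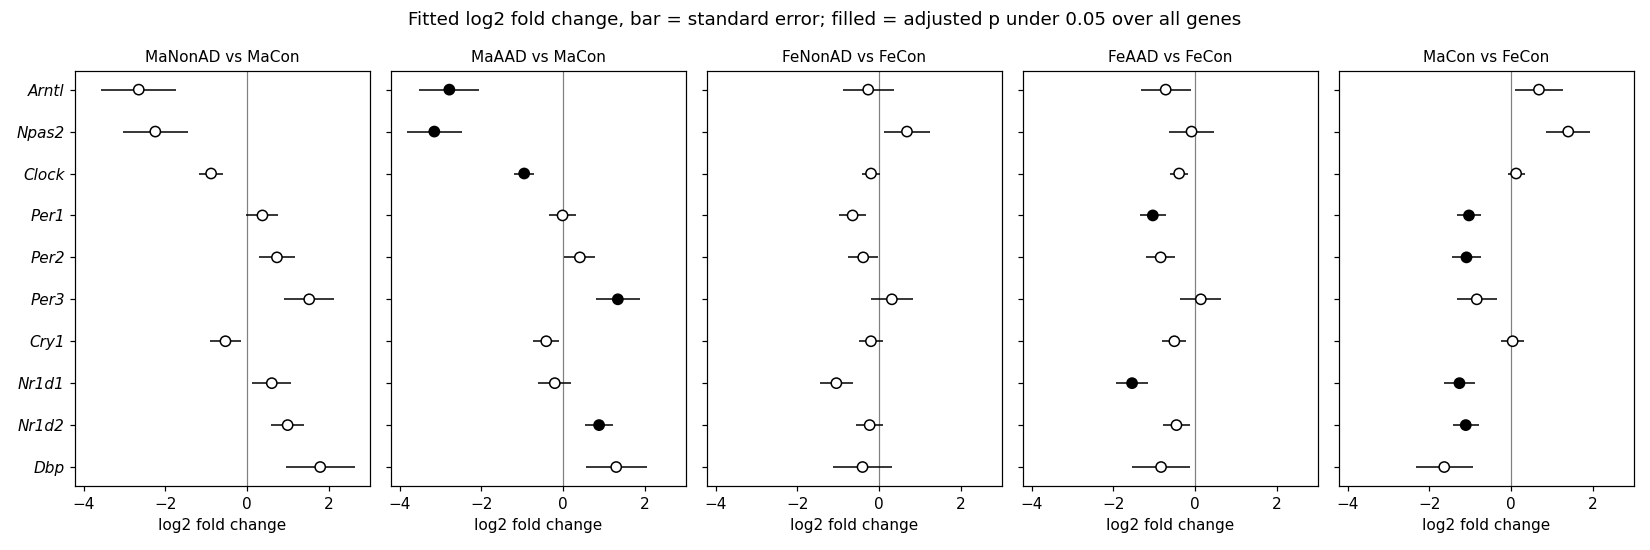
Fitted log2 fold change of each clock gene in 5 comparisons, first group over second, with its standard error as a bar; filled points have an adjusted p under 0.05 over all genes. In MaAAD against MaCon the genes Arntl, Npas2 and Clock lie at -2.78, -3.15 and -0.95, and Per3 and Nr1d2 at 1.34 and 0.88.

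Between MaCon and MaAAD, 5 of the 10 members changed, where 35% of all genes tested were called, 18.9% as higher and 16.1% as lower. The activating arm fell. Arntl went from a mean of 38.1 ± 16.9 (SD, n = 10) to 5.53 ± 2.06 CPM (n = 7), which is -2.78 ± 0.73 as a log2 ratio (SE; edgeR's adjusted p = 0.00236), Npas2 from 57.5 ± 30.5 to 6.47 ± 1.61 CPM, -3.15 ± 0.67 (adjusted p = 0.000208), and Clock from 62.6 ± 16.6 to 32.4 ± 8.14 CPM, -0.95 ± 0.24 (adjusted p = 0.00145). Per3 and Nr1d2, of the repressing arm, rose by 1.34 ± 0.53 (adjusted p = 0.0454) and 0.88 ± 0.34 (adjusted p = 0.0401). Dbp differed by 1.3 ± 0.74 (adjusted p = 0.173), Per2 by 0.41 ± 0.38, Cry1 by -0.41 ± 0.31, Nr1d1 by -0.20 ± 0.41 and Per1 by -0.01 ± 0.33, none of which passed. The falls of Arntl, Npas2 and Clock were called without any 1 of the 17 libraries and under 6 of 6 other tests, filters and normalizations. The rises of Per3 and Nr1d2 were not firm: Per3 was called in 5 and Nr1d2 in 9 of the 17 fits without 1 library, with adjusted p up to 0.0886 and 0.09. Without MaCon5, Per3 rose by 1.98 (adjusted p = 0.00207) and Dbp was called too, with a rise of 2.21 (adjusted p = 0.0159).

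In male BAPN mice without a lesion, differences from MaCon were of like size but none of the 10 members was called, where 0.624% of all genes were. Arntl differed by -2.65 ± 0.92 (adjusted p = 0.191), Npas2 by -2.25 ± 0.80 (adjusted p = 0.202), Clock by -0.88 ± 0.29 (adjusted p = 0.165), Per3 by 1.52 ± 0.61, Nr1d2 by 0.99 ± 0.40 and Dbp by 1.79 ± 0.85. Those 6 genes had an unadjusted p under 0.05 in edgeR, but the share of all genes at that threshold is not given here. DESeq2 called none, a fit of the compared groups only called Arntl (adjusted p = 0.0477), and a fit with the replicate number as a block called Npas2 (adjusted p = 0.0423) and Per3 (adjusted p = 0.0429). The group has 4 libraries, which limits the precision of these values. Between MaAAD and MaNonAD, no member was called or had an unadjusted p under 0.05, where 0.409% of all genes were called. The largest differences were -0.91 ± 0.76 for Npas2 and -0.81 ± 0.50 for Nr1d1.

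Between FeCon and FeAAD, only Nr1d1 and Per1 were called, both lower, where 44.4% of all genes tested were called and 20.6% were lower. Nr1d1 fell from 743 ± 252 (SD, n = 10) to 256 ± 116 CPM (n = 9), by -1.54 ± 0.39 (SE, adjusted p = 0.00119), and was called under 7 of 7 other settings and without any 1 of the 19 libraries. Per1 fell from 245 ± 196 to 120 ± 65.6 CPM, by -1.03 ± 0.31 (adjusted p = 0.00666), but this rested on FeCon7 and FeCon9, without which the difference was -0.40 (adjusted p = 0.243). Per2 lay just outside the threshold, at -0.84 ± 0.36 (adjusted p = 0.052, and 0.0336 in DESeq2), and without FeCon7 and FeCon9 it was inside, at -0.96 (adjusted p = 0.035). The activating arm did not pass: Arntl differed by -0.72 ± 0.61 (adjusted p = 0.36), Npas2 by -0.08 ± 0.55 (adjusted p = 0.917) and Clock by -0.39 ± 0.22 (adjusted p = 0.146). Dbp differed by -0.83 ± 0.71, Cry1 by -0.50 ± 0.29, Nr1d2 by -0.45 ± 0.32 and Per3 by 0.14 ± 0.50.

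In female BAPN mice without a lesion no member was called against FeCon, where 14.5% of all genes were; 1 had an unadjusted p under 0.05 in edgeR, and DESeq2 called that gene, Nr1d1, alone. Nr1d1 differed by -1.04 ± 0.40 (adjusted p = 0.0688, and 0.0487 in DESeq2). Per1 differed by -0.65 ± 0.32 and Npas2 by 0.68 ± 0.56, and the other 7 by at most 0.40 in size, with Dbp at -0.40 ± 0.73. The value of Per1 rested on FeCon7 and FeCon9: without them it was -0.01 (adjusted p = 0.992), while Npas2 was at 1.11 (adjusted p = 0.23), Dbp at -0.65 (adjusted p = 0.63) and Nr1d1 at -1.05 (adjusted p = 0.0997), and again no member was called. Between FeAAD and FeNonAD no member was called either, and none had an unadjusted p under 0.05, where 18.2% of all genes were called. Npas2 differed there by -0.77 ± 0.58 and Nr1d1 by -0.50 ± 0.40.

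The control aortas of the sexes differed in 4 members, which were all lower in males, where 14.3% of all genes tested were called and 7.9% were lower in males. Nr1d1 was lower by -1.26 ± 0.37 (SE, adjusted p = 0.0191), Nr1d2 by -1.11 ± 0.32 (adjusted p = 0.016), Per2 by -1.09 ± 0.35 (adjusted p = 0.0294) and Per1 by -1.03 ± 0.30 (adjusted p = 0.0193) in MaCon than in FeCon. Npas2 was the member with the largest difference the other way, 1.40 ± 0.54 (adjusted p = 0.0699), and Dbp differed by -1.63 ± 0.70 (adjusted p = 0.106). Per2 was called in 14 of 20 fits without 1 library, with adjusted p up to 0.0583. Without FeCon9 alone the difference in Per1 was -0.72 (adjusted p = 0.0864), and without FeCon7 and FeCon9 it was -0.39 (adjusted p = 0.32), and Npas2 was called, at 1.83 (adjusted p = 0.0286). Without MaCon5, 7 members were called: Npas2 at 1.54 (adjusted p = 0.0414), Dbp at -2.52 (adjusted p = 0.0128), Per3 at -1.45 (adjusted p = 0.0351) and the 4 named first.

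After BAPN, no difference of a member between the sexes passed the test: 0 of 10 were called between MaNonAD and FeNonAD (0.0624% of all genes) and between MaAAD and FeAAD (0.0901%). DESeq2 also called none, and edgeR gave an unadjusted p under 0.05 for 0 and 1 of them. That gene was Npas2, at -1.66 ± 0.64 in MaAAD against FeAAD (adjusted p = 1), and Arntl differed by -1.38 ± 0.71.

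The test of the difference itself asked whether the change from control to AAD was unlike in the sexes. It called 1 member, where 1.34% of all genes were called: Npas2, whose change was lower in males by -3.07 ± 0.84 (adjusted p = 0.0493). With DESeq2's size factors its adjusted p was 0.0501, and it was called in 13 of 36 fits without 1 library. The differences of the other members did not pass. Of the 10, 7 had an unadjusted p under 0.05, but the share of all genes at that threshold is not given here. Among these 7 were Nr1d2 at 1.34 ± 0.47 (adjusted p = 0.136), Dbp at 2.13 ± 1.03 (adjusted p = 0.304) and Arntl at -2.07 ± 0.92 (adjusted p = 0.259). One of these, Per1, was at 1.02 ± 0.45 (adjusted p = 0.259) and at 0.39 (adjusted p = 0.654) without FeCon7 and FeCon9, where Npas2 was called at -3.47 (adjusted p = 0.0265). For the response of mice without a lesion, 0 members were called by edgeR or DESeq2, where edgeR called 0.416% of all genes. An unadjusted p under 0.05 was found for 5 members, again without the share of all genes at that threshold. Npas2 was at -2.93 ± 0.97 (adjusted p = 0.162) there, and Per1, at 1.02, came to 0.40 without FeCon7 and FeCon9. For the step from NonAD to AAD, 0 members and 0% of all genes were called, and no member had an unadjusted p under 0.05 in edgeR.

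Cell type markers changed between control and AAD aortas in both sexes, where over all genes 18.9% were higher and 16.1% lower in MaAAD, and 23.8% higher and 20.6% lower in FeAAD. All 6 smooth muscle markers fell in MaAAD against MaCon and in FeAAD against FeCon, and their summed level ranged from 27510 to 59714 CPM in MaCon, 11730 to 29183 in MaAAD, 30042 to 51829 in FeCon and 13829 to 31672 in FeAAD, with no marker at 0 in any library. All 7 macrophage markers rose in both comparisons, from sums of 223 to 575 CPM in MaCon to 832 to 3720 CPM in MaAAD, and from 267 to 637 CPM in FeCon to 634 to 5622 CPM in FeAAD. Neutrophil markers rose as well (4 of 4 tested in each sex), with Ly6g at 0 in some libraries of every group. Of the fibroblast markers 4 of 6 were called higher in MaAAD and 3 of 6 in FeAAD, of the B cell markers 4 of 4 in FeAAD, 2 of 4 in MaAAD and 3 of 4 in MaNonAD (0.624% of all genes called), and 4 of 7 heart muscle markers were called lower in FeAAD. With so few markers in a list, counts such as 2 of 4 or 3 of 6 are not read as a change of the cell type. Between MaCon and FeCon no smooth muscle, macrophage or neutrophil marker was called, but 2 of 5 T cell markers were higher in males, with a summed level of 1.27 to 110 CPM in MaCon (highest in MaCon2) and 1.14 to 13.8 CPM in FeCon. The part of the tissue's makeup in the clock genes' differences was not tested. FeAAD5, with the highest neutrophil sum, had the lowest Per1 and Per2 of the series (30.7 and 17.8 CPM), and MaAAD7 the lowest Nr1d1 and Dbp of its group (98.8 and 112 CPM).

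The wider clock was followed in 25 further genes, of which 24 passed the filter on low counts. In MaAAD against MaCon, 5 rose and 3 fell, a share near the 35% called over all genes. The largest rises were those of Bhlhe40 at 1.78 ± 0.20 (adjusted p = 9.17e-09), a repressor that acts at the E-box, and Timeless at 1.54 ± 0.25 (adjusted p = 4.38e-06), which works mainly in DNA replication in mammals. Among those that fell were Nfil3, the repressor at the D-box, at -2.05 ± 0.64 (adjusted p = 0.0101), and Rora, which activates at ROR elements, at -0.63 ± 0.19 (adjusted p = 0.00763). In FeAAD against FeCon, 3 rose, Timeless among them at 1.38 ± 0.24 and Arntl2 at 0.35 ± 0.13, and 8 fell, the most of them Cry2 at -1.13 ± 0.21 (adjusted p = 1.86e-05) and Nampt at -0.84 ± 0.21; these 11 of 24 were near the 44.4% called over all genes. In FeNonAD against FeCon, 0 rose and 3 fell (14.5% of all genes were called), with Cry2 at -0.83 ± 0.21 and Csnk1e at -0.39 ± 0.08. Without FeCon7 and FeCon9, 1 rose and 4 fell there, and Arntl2 in FeAAD was at 0.24 (adjusted p = 0.138). In FeAAD against FeNonAD 4 rose (18.2% of all genes were called), led by Timeless at 0.88 ± 0.25 and Bhlhe40 at 0.62 ± 0.20, and in MaAAD against MaNonAD 0 were called, where 1 had an unadjusted p under 0.05 in edgeR and DESeq2 called 1. The median difference of the list was 0.00 in MaAAD against MaCon, where that of all genes was -0.03, and -0.34 in FeAAD against FeCon, where that of all genes was 0.00.

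Bhlhe40 was the one gene of the wider clock called in MaNonAD against MaCon, at 1.51 ± 0.23 (adjusted p = 0.000142), where 0.624% of all genes were called. Its values were 85.3, 87.9, 102 and 103 CPM in MaNonAD. They ranged from 96.5 to 125 CPM in MaAAD (median 115) and from 19.5 to 54.5 CPM in MaCon (median 31.6). Neither male BAPN group thus overlapped with the male controls. Over all genes tested, 1.26% did not overlap between MaNonAD and MaCon and 8.91% between MaAAD and MaCon. In FeCon it ranged from 37.4 to 96.1 CPM (median 74.3). Its response to BAPN was tested to be higher in males than in females both without a lesion, by 1.74 ± 0.31 (adjusted p = 0.00233), and with it, by 1.38 ± 0.28 (adjusted p = 0.00778). Each response is taken against the controls of the same sex, and the median of MaCon (31.6 CPM) was below that of FeCon (74.3 CPM). MaCon5 had Bhlhe40 at 46.6 CPM, within the range of the other MaCon libraries. Between MaCon and FeCon, 1 gene of the wider list was higher and 11 were lower in males, where 14.3% of all genes were called and 7.9% were lower, among them Bhlhe41 at -1.49 ± 0.35, Cry2 at -1.08 ± 0.20 and Tef at -1.19 ± 0.38.

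Glucocorticoids and temperature are known to set peripheral clocks. Of 10 glucocorticoid-responsive genes, 6 fell in FeAAD and 3 in FeNonAD against FeCon, with Fkbp5 at -1.93 ± 0.46 and -1.91 ± 0.48, and 3 fell in MaAAD against MaCon, with Pdk4 at -1.61 ± 0.40; none rose in these comparisons. Over all genes, 20.6% were lower in FeAAD, 7.66% in FeNonAD and 16.1% in MaAAD. In females most of these falls rested on FeCon7 and FeCon9: without them 2 of the 10 fell in FeAAD, Fkbp5 at -1.55 (adjusted p = 0.00576) and Klf9 at -0.78 (adjusted p = 0.00129), and 1 in FeNonAD, Fkbp5 at -1.53 (adjusted p = 0.0295). Errfi1, which fell by -1.63 ± 0.49 in FeAAD against all FeCon libraries, was at 0.33 (adjusted p = 0.35) without them. Of 9 genes that respond to temperature, 7 fell and 1 rose in MaAAD against MaCon. The 1 that rose was Rbm3, which is induced by cold, at 0.68 ± 0.18. The other 8 all lay below 0, Cirbp, also induced by cold, among them. In MaNonAD against MaCon, where 0.624% of all genes were called, 3 fell. In MaCon against FeCon, where 14.3% of all genes were called, 5 of the 9 were higher and 1 lower. The sex difference of the response was called for 4 of them with a lesion and 2 without (1.34% and 0.416% of all genes). The heat shock genes Hspa1b and Hspa1a were the largest falls, at -3.60 ± 0.58 and -3.52 ± 0.52 in MaAAD. In females 2 fell in FeAAD and 2 in FeNonAD against FeCon (1 in FeNonAD without FeCon7 and FeCon9), with Hspb1 at -2.21 ± 0.26 and -1.92 ± 0.26. Hspa1b was among the highest in 3 of 4 low-Dbp libraries of MaCon and 3 of 3 of FeNonAD. It was 1548, 1175, 1052 and 473 CPM in MaCon7, MaCon6, MaCon8 and MaCon4, where MaCon2 had 548 CPM and the other 5 libraries 68.3 to 208 CPM, and 371, 458 and 378 CPM in FeNonAD5, FeNonAD6 and FeNonAD8, where the other FeNonAD libraries had at most 103 CPM. In FeAAD 2 of the 4 low-Dbp libraries were among the highest in Hspa1b and the other 2 among the lowest, and in FeCon 2 of 3 were among the highest. The part of either signal in the members' levels was not tested.

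Genes outside the loop were ranked beside its own. Ranked by the correlation of deviations from group means over the 48 libraries, among all other genes Npas2 ranked 1 for Arntl (r = 0.94) and Clock ranked 3 (r = 0.91), and Per3 was the most negative of all (r = -0.92). Of genes that are no members and average at least 10 counts, those most like Arntl were Leo1 (r = 0.93), Crybg3 (0.90), Adamts4 (0.89), Snx18 (0.86) and Cmtm6 (0.86), and those most opposed to it were Ciart (-0.87), Tef (-0.87), Naa60 (-0.86), Bhlhe41 (-0.85) and Fam76a (-0.84). For Dbp they were Tcap (r = 0.97), Bhlhe41 (0.94), Tef (0.94), Ciart (0.84) and Rasd2 (0.84) on the like side, and Nfil3 (-0.88), Leo1 (-0.86), Adamts4 (-0.83), Snx18 (-0.82) and Hsph1 (-0.79) on the other. Libraries of most groups fall apart into those with low and those with high Dbp. These values take in that split, its part in them was not tested, and they carry no test. Of the groups without the split, MaAAD and MaNonAD, only MaAAD had enough libraries for a correlation. There r with Dbp was 0.90 for Tcap, 0.92 for Tef, 0.88 for Ciart, 0.83 for Bhlhe41 and 0.35 for Rasd2. On the other side it was -0.91 for Leo1, -0.82 for Adamts4, -0.76 for Nfil3, -0.76 for Hsph1 and -0.02 for Snx18. With Arntl, r there was 0.84 for Adamts4, 0.64 for Crybg3, 0.63 for Leo1, 0.54 for Cmtm6 and -0.25 for Snx18. It was -0.85 for Ciart, -0.68 for Tef, -0.62 for Bhlhe41, -0.38 for Naa60 and -0.30 for Fam76a.

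In MaAAD the members could be related within 1 group of 7 libraries. Per3 and Dbp went together (r = 0.90, exact permutation p = 0.00476, adjusted p = 0.0938; Spearman's rho = 0.75, permutation p = 0.0663) and Arntl was opposed to Dbp (r = -0.79, exact permutation p = 0.0347, adjusted p = 0.167; rho = -0.89, permutation p = 0.0123). Without the 2 libraries farthest from the median of the first gene, r was 0.73 and -0.92. In all, 135 relations were computed, 45 in MaAAD and 45 each in the 6 MaCon and 7 FeCon libraries on the high side of the split in Dbp. By Pearson's r, 0 passed the adjusted threshold. By Spearman's rho 2 did, Arntl with Per3 and Npas2 with Dbp, both in the 7 FeCon libraries. There Arntl still fell apart by a log2 gap of 1.01, between 10.5 and 22.1 CPM, with 4 libraries below and 3 above. Its relation with Per3 is therefore not read as a result. Npas2 and Dbp had no gap over 1 in that set. Their relation (rho = -1, adjusted permutation p = 0.0268) did not pass by Pearson's r (-0.89, adjusted permutation p = 0.103). The set itself was chosen after seeing the data, so this relation is not read as a result either.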

How the data were processed

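Strand-specific mRNA libraries of 48 mouse thoracic aortas were sequenced by the authors. They deposited estimated counts per gene, with no scaling; the submitters' processing notes name Bowtie2, RSEM 1.3.1 and the build GRCm39. Of the values 4.99% were not whole, and all were rounded. Columns were tied to samples through their names. The members and gene lists were chosen with earlier results of these data known.

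All 48 libraries were fitted with edgeR 4.0.16 (R 4.3.3): filterByExpr, which kept 14431 genes, TMM factors between 0.874 and 1.08, a mean for each of the 6 groups and the robust quasi-likelihood test. A gene was called at a Benjamini-Hochberg adjusted p under 0.05 over all genes tested. Standard errors are approximate, from the fold change and the F statistic. The script was tested on simulated data. Spread and correlations used log2(CPM + 1), with exact permutation tests, two-sided. Groups whose libraries fell apart by over 1 on the log2 scale were given no pooled correlation but were related on 1 side of the gap in Dbp, a rule added after seeing the data. Alternatives were DESeq2 1.42.0, its size factors, no filter, no robust estimation, the compared groups only, the replicate number as a block, an added 2-fold threshold, leaving out each library, and a pseudocount of 0.1.

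Named were all members, up to 2 genes per direction and within-sex comparison of each other list, and the 5 genes most like and most opposed to Arntl and Dbp; genes named for single libraries (Ciart, Fkbp5, Hspa1b, Errfi1, Klf9), for the comparison of controls or for Bhlhe40 were chosen after their values were seen. The study's methods house males and females apart, each group in more than 1 cage; cages are not given per mouse, so no fit could include them, and cage cannot be told apart from group. Promoter windows of RefSeq (GRCm38.p6) were used for motifs only; gene positions in GRCm39 were not used here. Depth was alike in all groups, and intervals cover the spread between mice.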

Additional observations from a re-analysis of the deposited data

Results flagged for a closer look

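Among 60 sets of values, 10 members in 6 groups, 6 values stood apart from the rest of their group by more than Dixon's 95% limit, which chance alone passes in about 1 of 20 groups. Of these, 5 belong to MaCon5: Dbp at 472 CPM (the next MaCon library at 133), Per3 at 173 CPM (next 45.7), Per2 at 213 CPM (next 109), Per1 at 239 CPM (next 137) and, at the low end, Clock at 22.5 CPM (next 57.2). These 5 values come from 1 library and are not independent. The sixth is Clock in MaAAD2, at 49.1 CPM where the next MaAAD library had 34.4 CPM.

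The change of Npas2 from control to AAD differed between the sexes, by a test of the difference itself that only just passed: the log2 change from control was lower in males by -3.07 (adjusted p = 0.0493, edgeR's quasi-likelihood test). It was not called with DESeq2's size factors (adjusted p = 0.0501), with no filter (0.0674), with the replicate number as a block (0.0781) or in 23 of 36 fits without 1 library. Npas2 was lower in 7 of 7 MaAAD libraries than in 9 of 10 MaCon libraries, whereas in females the ranges of FeAAD and FeCon were nearly the same, 3.24 to 50.3 and 4.69 to 50.5 CPM.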

How the results depend on the processing

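Of 12 called fold changes of the clock genes none changed direction, 7 were called under every other test and normalization, and 7 without every single library. Counts of called members changed by over 1.5 times as follows. With the compared groups only, 1 was called in MaNonAD against MaCon (Arntl) and 1 in FeAAD against FeCon (Nr1d1). DESeq2 called 1 in FeNonAD against FeCon (Nr1d1). Asking also for a 2-fold change left 3 in MaAAD against MaCon (Arntl, Npas2 and Per3). With no filter, Per3 was lost in MaAAD against MaCon (adjusted p = 0.055), and with the compared groups only Npas2 was gained in MaCon against FeCon (adjusted p = 0.0471). In the sex difference of the AAD response, 0 were called with DESeq2's size factors and 0 with no filter on low counts. Without 1 library, counts ranged from 3 to 6 in MaAAD against MaCon (3 without MaCon4, MaCon6, MaCon7, MaCon8, MaAAD4, MaAAD5 or MaAAD6), from 3 to 7 in MaCon against FeCon, from 0 to 1 in FeNonAD against FeCon (1 without FeNonAD7) and from 0 to 1 in the sex difference of the AAD response. The cause of these changes was not tested.

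Replicate numbers were shared between groups by name only: no pair of groups had same-numbered libraries that all deviated together (mean correlations from -0.23 to 0.16). With the number as a block, 2 members were called in MaNonAD against MaCon (Npas2 and Per3), 1 in FeAAD against FeCon (Nr1d1) and 0 in the sex difference of the AAD response; Nr1d2 was lost in MaAAD against MaCon (adjusted p = 0.094) and Per1 in MaCon against FeCon (adjusted p = 0.134). Some fold changes that were not called changed sign. In MaAAD against MaCon Nr1d1 came to 0.31, in FeAAD against FeCon Per3 to -0.10, in MaAAD against MaNonAD Per3 to 0.0258, in FeAAD against FeNonAD Arntl to 0.0145, Nr1d2 to 0.0342 and Dbp to 0.30, and in MaCon against FeCon Cry1 to -0.0383. In MaNonAD against FeNonAD the block gave Arntl 1.29 (-1.70 without it), Npas2 0.40 (-1.53 without it), Per2 -0.53, Per3 -0.45, Nr1d1 -0.0104, Nr1d2 -0.46 and Dbp -0.21, in MaAAD against FeAAD Per1 0.15, in the sex difference of the NonAD response Cry1 0.0557, and in that of the NonAD-to-AAD step Arntl -0.78, Clock -0.0541, Per1 0.30, Per3 0.76, Nr1d1 0.14 and Dbp 0.82.

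Other fold changes that were not called and changed sign were those of Per1 in MaAAD against MaCon (0.0075 with DESeq2 and with its size factors, 0.0084 with no filter, 0.0218 with the compared groups only), in MaAAD against FeAAD (0.0027 with DESeq2, 0.0026 with its size factors), in MaNonAD against FeNonAD (0.0087 with no filter) and in the sex difference of the NonAD-to-AAD step (0.0053 with DESeq2, 0.0052 with its size factors). Without FeCon7 and FeCon9, an alternative chosen after seeing the data, they were those of Arntl in FeNonAD against FeCon (0.0499), Npas2 (0.32) and Per3 (-0.0785) in FeAAD against FeCon and Cry1 in MaCon against FeCon (-0.11).

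Without 1 library the sign also changed, over the range given, for Per1 in MaAAD against MaCon (-0.0397 to 0.19), for Npas2 (-0.37 to 0.15) and Per3 (-0.0659 to 0.33) in FeAAD against FeCon, for Arntl (-0.42 to 0.37), Clock (-0.21 to 0.21), Per3 (-0.37 to 0.18), Cry1 (-0.12 to 0.51) and Nr1d2 (-0.23 to 0.0016) in MaAAD against MaNonAD, for Arntl (-0.81 to 0.10) and Per3 (-0.38 to 0.0084) in FeAAD against FeNonAD, for Cry1 in MaCon against FeCon (-0.0625 to 0.12), for Per1 (-0.10 to 0.15), Per2 (-0.24 to 0.24) and Nr1d2 (-0.0339 to 0.30) in MaNonAD against FeNonAD, and for Per1 (-0.14 to 0.15) and Nr1d1 (-0.0455 to 0.22) in MaAAD against FeAAD. In the sex difference of the step they were Arntl (-0.23 to 0.82), Npas2 (-0.56 to 0.33), Clock (-0.0549 to 0.40), Per1 (-0.14 to 0.16), Per2 (-0.0742 to 0.41), Per3 (-0.20 to 0.35), Nr1d2 (-0.0727 to 0.26) and Dbp (-0.23 to 0.15).

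Counts of the other lists changed with DESeq2 for the wider clock (2 in MaNonAD against MaCon, 5 in FeNonAD against FeCon, 1 in MaAAD against MaNonAD) and the temperature genes (7 in MaNonAD against MaCon). With the 2-fold threshold the wider clock came to 0 in FeNonAD against FeCon, 4 in MaAAD against MaCon, 2 in FeAAD against FeCon, 0 in FeAAD against FeNonAD and 4 in MaCon against FeCon. The glucocorticoid genes came to 1 in MaCon against FeCon, and the temperature genes to 1 in FeNonAD against FeCon, 1 in FeAAD against FeCon, 0 in FeAAD against FeNonAD and 3 in MaCon against FeCon. Without FeCon7 and FeCon9, against FeCon, 5 genes of the wider clock were called in FeNonAD, glucocorticoid genes came to 1 in FeNonAD, 2 in FeAAD and 1 in MaCon, and temperature genes to 1 in FeNonAD. The 1 glucocorticoid gene then called in MaCon was higher than in FeCon, whereas the 2 called with all libraries were lower. By Pearson's r, 0 correlations passed under each setting; with a pseudocount of 0.1 or DESeq2's size factors, the pooled standard deviations of the 10 members changed by less than their spread over groups.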
